A study of Mus musculus with 2 samples.

Results

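The 44 mouse genes described here encode the fibroblast growth factors (FGFs) and their receptors, the Sprouty inhibitors, and the growth hormone and insulin-like growth factor (IGF) signalling components. They were chosen by gene symbol from 21887 protein-coding genes in RefSeq's annotation of GRCm38.p6 (mm10). The symbols taken were the numbered Fgf, Fgfr, Igfbp and Spry genes, Fgfrl1, Igf1, Igf1r, Irs1, Irs2, Insr and Ghr. The rule uses no measured value, although the group was picked with earlier results of these data known. FGFs bind receptor tyrosine kinases with heparan sulfate as a co-factor and signal mainly through the MAP kinase cascade, which Sprouty proteins dampen. In the growth plate, FGF receptor 3 restrains chondrocyte proliferation and Fgf18 is among its ligands. Growth hormone and IGF-1 promote longitudinal bone growth, IGF-1 acts through the receptor Igf1r and the insulin receptor substrates, and IGF-binding proteins hold and transport IGFs.

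The measurement was capture of methylated DNA by the MBD2 protein followed by sequencing (MBD-seq) in mouse primary chondrocytes on a C57BL/6 background. Uhrf1 cKO cells, in which Uhrf1 was conditionally deleted, were compared with Control cells. Uhrf1 is the protein that guides the maintenance methyltransferase to newly replicated DNA. The labels do not name the Cre driver, the floxed allele or the genotype of the Control mice. Cells of both groups were isolated from knee cartilage on postnatal day 3 and received recombinant human BMP-2 at 100 ng/ml for 24 hours once confluent. Each group had 1 library, with 15039206 tags kept for Uhrf1 cKO and 9782276 for Control, so no value has a replicate check and no test of the genotype was possible. A list of methylated regions gives no RNA level, so the cell type in the labels was not checked against marker genes.

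The deposited list holds 35861 regions in which the capture signal was lower in Uhrf1 cKO than in Control cells, at a p limit of 1e-10. Regions with the opposite direction were not analysed here. Each region carries its count of Control tags, a fold and a false discovery rate (FDR), all as the authors' peak caller gave them. The fold is Control over cKO, so that a larger fold means a lower cKO signal relative to Control, not a lower cKO level as such. For the FDR, the caller swapped the libraries and set the number of regions it then found beside the number listed. An FDR of 100% means that the swapped call gave at least as many regions of that strength. The precision of a region is limited by its tag count. Duplicate removal discarded 23.9% of the cKO tags and 55.2% of the Control tags, and the part of this difference in any region was not tested. Uhrf1 itself held 5 listed regions, at folds of 7.32 to 24.6. Fewer copies of the targeted DNA and less methylation cannot be told apart there.

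Of the 44 genes, 22 (50%) had at least 1 region in the annotated span or within 5 kb of it, against 47.4% of all protein-coding genes, so the share was near the background. Spry3, whose listed position is not usable, was not assessed and is counted as without a region in all shares of the 44. A region with an FDR of at most 5% was present for 16 genes (36.4%), against 35.1% of all. The remaining 6 of the 22, Igf1, Igfbp6, Fgf6, Fgf9, Fgfr3 and Spry1, had only regions above that FDR. In all, 58 regions were found, and no region was shared between genes of the group. Igf1r held 14 of them (24.1%). Igfbp7 had 5 regions, 7 genes had 3 or 4, 2 genes had 2 and 11 genes had 1. Having 5 or more regions was as common in the group (2 genes, 4.55%) as among all protein-coding genes (5.29%).

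**Figure D1:**
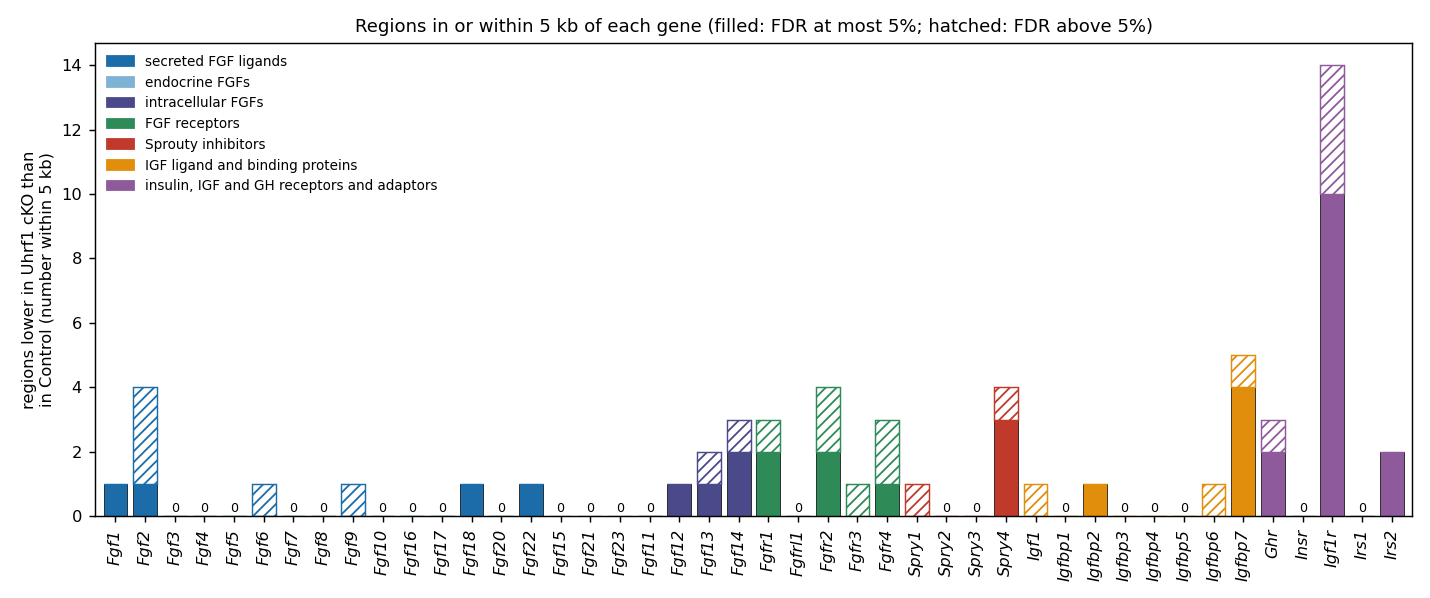
Number of regions with lower capture signal in Uhrf1 cKO than in Control cells in or within 5 kb of each of the 44 genes (vertical axis), with genes grouped and coloured by role along the horizontal axis. Filled bars count regions with an FDR of at most 5% and hatched bars those above it. Igf1r stands highest with 14 regions, and 22 genes are at 0, of which Spry3 was not assessed.

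The share of genes with a region followed gene length, as it did over all genes. Of the genes with a span under 20 kb, 7 of 24 (29.2%) had a region, against 30.4% of all protein-coding genes of that length. The 24 include Spry3, which was not assessed. In the class of 20 to 100 kb the numbers were 9 of 13 (69.2%) and 61.7%. Of the genes over 100 kb, 6 of 7 (85.7%) had a region, against 84.9%. Per 100 kb of widened span, the group held 1.48 regions and all protein-coding genes held 1.95. The genes over 100 kb held 1.01 regions per 100 kb, against 1.38 for all genes over 100 kb. These rates are not matched for length within the class. The median span there was 281 kb in the group and 172 kb over all genes. Shorter genes held 2.71 (under 20 kb) and 2.32 (20 to 100 kb), against 2.5 and 2.56 for all genes of those classes.

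**Figure D2:**
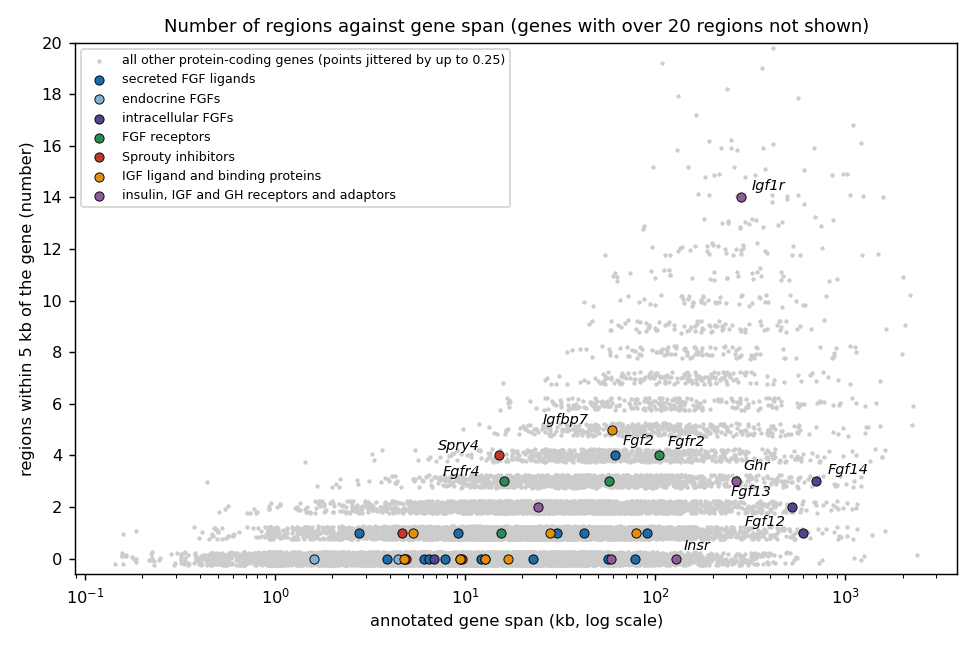
Number of regions within 5 kb (vertical axis) against annotated span in kb (horizontal axis, log scale) for the 44 genes (coloured by role) and all other protein-coding genes (grey). Igf1r lies high for its span of 281 kb with 14 regions. The longer genes Fgf12, Fgf13 and Fgf14 had 1, 2 and 3 regions, and of these only Fgf12 lies below the interquartile range of genes of like span.

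Few genes had a region at a transcription start, in the group as among all protein-coding genes. Within 1 kb of either end of the annotated span, 9 of the 44 genes (20.5%) had a region, against 9.64% of all protein-coding genes, and 4 (9.09%) had one with an FDR of at most 5%, against 6.11%. RefSeq start positions, and with them the strand, were at hand for 34 of the 44 genes. Among these, 2 genes (5.88%) had a region within 1 kb of a start, against 3.98% of all protein-coding genes with a listed start. They were Fgf13 and Igfbp6, and both regions had an FDR of 100%. At an FDR of at most 5%, no gene of the group had a region at a start, against 2.46% of all. By contrast, 8 of the 34 (23.5%) had a region within 1 kb of the 3′ end, against 6.35% of all. These were Fgf2, Fgf6, Fgf18, Fgf22, Fgfr4, Spry1, Igf1r and Irs2. With an FDR of at most 5%, Fgf18, Fgf22, Igf1r and Irs2 remained (11.8%, against 4.18% of all). The count at 3′ ends was added after the positions had been seen, and no difference from all genes was tested. The gene table used gives no exons, so whether a region lay in an exon, an intron or an untranslated part was not analysed here.

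**Figure D3:**
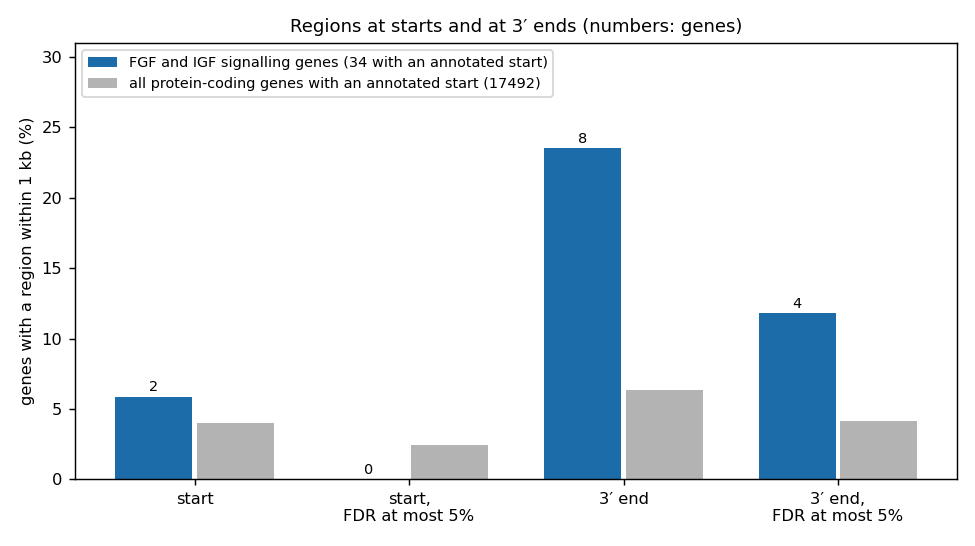
Share of genes (%) with a region within 1 kb of an annotated start (left pairs) or of the 3′ end (right pairs), for the 34 genes of the group with a listed start (blue, number of genes above each bar) and for 17492 protein-coding genes (grey). The blue bar at 3′ ends stands for 8 genes (23.5%) beside 6.35% of all genes, and falls to 4 genes at an FDR of at most 5%.

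None of the 43 promoter windows of these 34 genes, which run from 250 bases before a start to 50 bases after it, overlapped a region. Of all 21263 protein-coding windows, 0.823% did. The promoters were rich in the dinucleotide CG, the target of DNA methylation. In the 250 bases before the start, the group had a median of 17 CG (interquartile range 7.5 to 24), against 10 (3 to 19) over all such windows, of which 93.4% held at least 1 CG. CG reads the same on both strands. A CpG-rich start, with a GC content of at least 50% and an observed-to-expected CG ratio of at least 0.6, was present in 21 of the 34 genes. Of these 21 genes, 13 (61.9%) had a region within 5 kb, against 62.5% of all genes with such a start. Of the other 13 genes, 6 (46.2%) had one, against 33% of all genes without such a start. Within 1 kb of a start, 1 of the 21 genes had a region (4.76%, against 4.29% of all genes with a CpG-rich start), and so did 1 of the other 13 (7.69%, against 3.68% of all others). Shown here are the promoters of the 3 genes with a region nearest to a start and that of Igf1r, the gene with the most regions. Each is 250 bases before the start from RefSeq (GRCm38.p6), 5′ to 3′ on the gene's strand, with every CG in capitals.
Fgf13 (chrX:59134437-59134686, minus strand, the listed start nearest the 3′ end): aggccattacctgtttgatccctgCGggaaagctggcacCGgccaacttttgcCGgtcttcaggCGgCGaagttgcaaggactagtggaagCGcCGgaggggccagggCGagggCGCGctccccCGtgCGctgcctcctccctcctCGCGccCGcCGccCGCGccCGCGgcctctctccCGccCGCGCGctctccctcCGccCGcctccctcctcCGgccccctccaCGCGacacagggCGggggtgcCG
Igfbp6 (chr15:102143936-102144185, plus strand): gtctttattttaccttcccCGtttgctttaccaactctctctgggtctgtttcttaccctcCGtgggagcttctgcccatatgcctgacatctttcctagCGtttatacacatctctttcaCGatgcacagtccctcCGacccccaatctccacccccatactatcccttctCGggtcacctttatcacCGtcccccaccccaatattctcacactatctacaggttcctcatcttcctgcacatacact
Fgfr4 (chr13:55152568-55152817, plus strand): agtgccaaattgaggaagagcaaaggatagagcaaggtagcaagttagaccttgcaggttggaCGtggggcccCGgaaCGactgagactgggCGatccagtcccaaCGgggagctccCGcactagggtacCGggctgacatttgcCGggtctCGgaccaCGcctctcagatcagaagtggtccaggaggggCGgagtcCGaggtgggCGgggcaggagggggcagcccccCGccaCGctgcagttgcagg
Igf1r (chr7:67952007-67952256, plus strand): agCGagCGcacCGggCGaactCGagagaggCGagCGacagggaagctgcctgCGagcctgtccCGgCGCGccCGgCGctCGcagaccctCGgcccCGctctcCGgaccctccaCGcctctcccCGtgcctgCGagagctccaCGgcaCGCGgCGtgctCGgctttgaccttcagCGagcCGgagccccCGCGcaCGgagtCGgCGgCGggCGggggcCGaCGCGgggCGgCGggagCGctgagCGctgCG
The Fgf13 window held 31 CG and the nearest region lay 256 bp from it, inside the gene. The Igfbp6 window held 7 CG with the nearest region 686 bp upstream of it. The Fgfr4 window held 15 CG, with a region 1.67 kb further upstream. The Igf1r window held the most CG of the 4, at 42, and its nearest region was 22.9 kb away. A count of CG describes the sequence and not its methylation.

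Along the gene bodies, 41 regions had their summit inside the span of a gene with known strand. Of these, 25 (61%) lay beyond 50% of the annotated span, counted from its 5′ edge. Of 15729 summits inside all protein-coding genes with a listed start, 53.4% did. Within the 10% next to the start lay 2 (4.88%), against 8.32% of all. Igf1r supplied 13 of the 41, and without it 15 of 28 (53.6%) lay beyond 50% of the span, near the share over all genes. Over all 50 regions of these genes, the median summit was 51 kb from the nearest listed start.

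**Figure D4:**
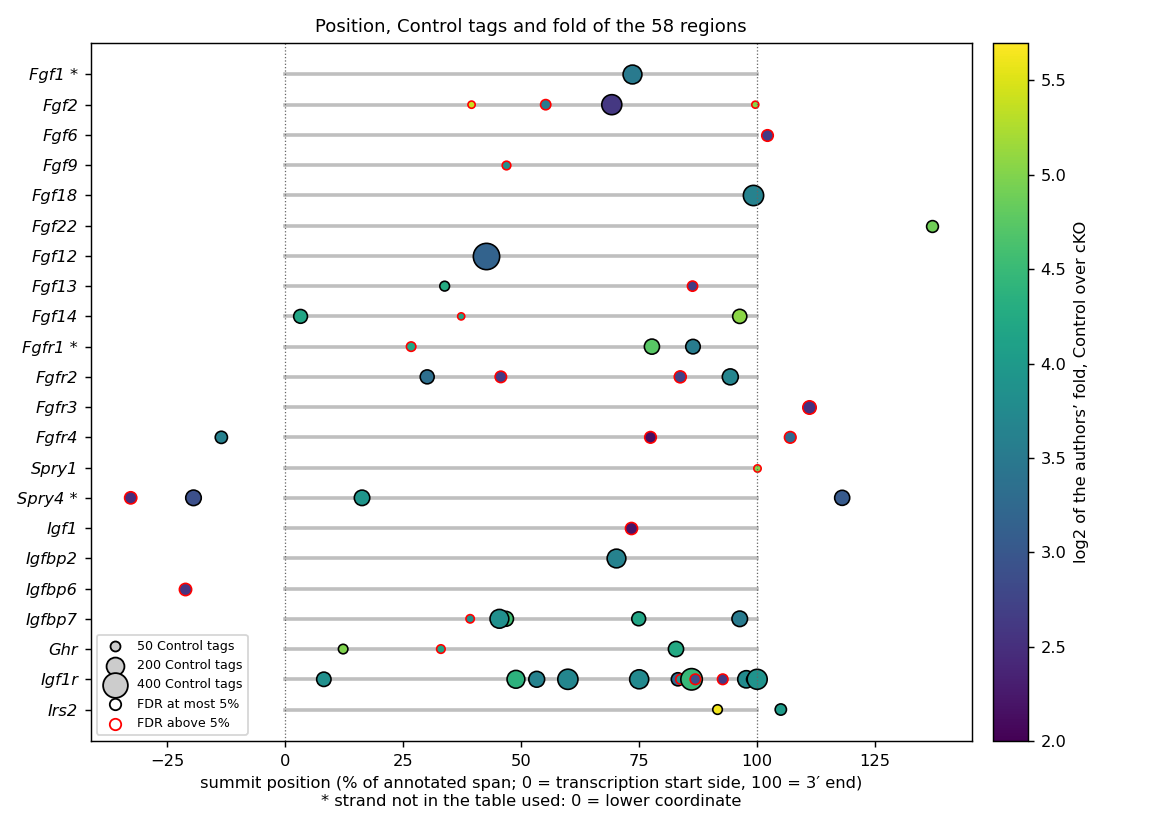
Position of each region's summit as a percentage of the annotated span (horizontal axis) for the 22 genes with a region. Circle area grows with Control tags, colour gives the log2 of the authors' fold of Control over cKO, and a black or red edge marks an FDR at most or above 5%. Circles crowd towards the 3′ end of Igf1r, and circles at or past 100 mark regions of Fgf6, Fgf22, Fgfr3, Fgfr4, Spry1, Igf1r and Irs2 beyond the 3′ end. For Fgf1, Fgfr1 and Spry4, marked with an asterisk, the strand was not at hand and 0 is the lower coordinate, so the Spry4 circle past 100 is not placed relative to its 3′ end.

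Among the 15 genes of secreted, locally acting FGFs, 6 had a region (40%, against 47.4% of all protein-coding genes) and 4 had one with an FDR of at most 5% (26.7%, against 35.1%). Fgf2, which encodes a broadly acting mitogen also stored in cartilage matrix, had 4 regions on chromosome 3 within its span (37348477 to 37410106). The region with the most reads (37390784 to 37391374) had 256 Control tags, a fold of 6.04 and an FDR of 0.02%. The region at 37372781 to 37372868 had 18 tags, a fold of 42 and an FDR of 9.41%. The region at 37382310 to 37382644 had 54 tags, a fold of 11.5 and an FDR of 31.7%. The last, 16 tags at 37409803 to 37409965 with a fold of 33 and an FDR of 77.3%, lay at the 3′ end and also overlapped the neighbouring gene Nudt6. Thus the best-covered region of Fgf2 had the smallest fold of the 4, and the large folds rested on few tags.

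Fgf18, a growth plate ligand expressed in the perichondrium, had a single region across its 3′ end. It spanned 33116688 to 33117489 on chromosome 11, 802 bp, with 263 Control tags, a fold of 12.4 and an FDR of 0%. No other region lay within 5 kb of the 30.4 kb gene. Fgf22, a ligand known from synapse formation in the brain, had a region on chromosome 10 at 79758574 to 79759044, 779 bp past its 3′ end. It held 77 tags at a fold of 30 and an FDR of 0.02%, and it overlapped the adjacent gene Rnf126, so it cannot be assigned to Fgf22 alone. Fgf1, a ligand that binds all FGF receptors, had a region at 38904987 to 38905663 on chromosome 18 with 224 tags, a fold of 11.4 and an FDR of 0%. The same position lies within the annotated spans of Arhgap26 and Gm5820.

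The other 2 ligand genes had weaker regions. Fgf6, expressed in muscle, had 73 tags at a fold of 6.26 and an FDR of 38% across its 3′ end (127024682 to 127025088, chromosome 6). Fgf9, whose protein takes part in early limb skeletal growth, had 33 tags at a fold of 14.45 and an FDR of 95.2% inside the gene. Both are regions that the swapped libraries also gave in some number. No region lay within 5 kb of Fgf3, Fgf4, Fgf5, Fgf7, Fgf8, Fgf10, Fgf16, Fgf17 and Fgf20. Fgf8 and Fgf10 act between the ectodermal ridge and the mesenchyme of the limb bud, and the nearest listed regions to them were 11.4 and 223 kb away.

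None of the 3 endocrine FGF genes had a region, and all are under 20 kb long, where 30.4% of all genes had one. Their products travel in blood and need Klotho proteins as co-receptors. The nearest region was 8.01 kb from Fgf15, an intestinal regulator of bile acid synthesis, 14.2 kb from Fgf21, a liver-derived metabolic hormone, and 25.8 kb from Fgf23, the bone-derived regulator of phosphate.

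The intracellular FGF genes, whose products bind voltage-gated sodium channels and are not secreted, were among the longest genes of the group, apart from the short Fgf11, which had no region. Fgf12 had 1 region in 595 kb, Fgf13 had 2 in 523 kb and Fgf14 had 3 in 703 kb. Genes of like span (0.8 to 1.2 times as long) held a median of 3.5 regions for Fgf12 (interquartile range 2 to 7). For Fgf13 it was 3 (2 to 6) and for Fgf14 it was 4 (2 to 9). Only Fgf12 lay below its range. The Fgf12 region (28500153 to 28501032, chromosome 16) had 455 Control tags, the most of all 58 regions, at a fold of 8.96 and an FDR of 0%. In Fgf14, the region towards the 3′ end (124000072 to 124000671, chromosome 14) had 119 tags at a fold of 33.3, and that near the far end of the span (124654175 to 124654792) had 112 tags at a fold of 18. Both had an FDR of 0%, whereas the third had 17 tags and an FDR of 100%. In Fgf13 the region with its summit 487 bp inside the listed start nearest the 3′ end (59133774 to 59134181) had 53 tags, a fold of 6.31 and an FDR of 100%. The other, at 59408465 to 59408826, had 47 tags, a fold of 19.2 and an FDR of 4.69%. Fgf13 is X-linked and the sex of the mice is not in the labels, so the number of X copies in each library is unknown.

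Of the 5 FGF receptor genes, 4 had a region (47.4% of all protein-coding genes did) and 3 had one with an FDR of at most 5% (35.1% of all). Fgfr3, Fgfr4 and Fgfrl1 are under 20 kb long, where 30.4% of all genes had a region, and the 57 kb Fgfr1 and 104 kb Fgfr2 fall in classes where 61.7% and 84.9% did. The difference from all genes was not tested for these 5. They had 11 regions in all, with folds of 4.39 to 26.8. Fgfr1, expressed in hypertrophic chondrocytes, had 3 in its span on chromosome 8. Those at 25562755 to 25563308 (138 tags, fold 26.8, FDR 0%) and 25567632 to 25568084 (126 tags, fold 11.6, FDR 0.02%) were the stronger, beside 43 tags at an FDR of 11.6% at 25533871 to 25534164. Fgfr2, the receptor of perichondrial and mesenchymal cells, had 4 regions in 104 kb on chromosome 7. Genes of like span had a median of 2 (interquartile range 1 to 4). The region at 130168187 to 130168683 had 156 tags, a fold of 12.9 and an FDR of 0%, and the region at 130235059 to 130235594 had 115 tags, a fold of 10.2 and an FDR of 3.77%. The other 2, at 130179233 to 130179680 and 130218812 to 130219271, had 80 and 72 tags, folds of 6.66 and 6.25, and FDRs of 67.8% and 100%.

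Fgfr4, a receptor prominent in liver and developing muscle, had a region on either side and another inside. The region 1923 bp upstream of its start (55150422 to 55150895, chromosome 13) had 84 tags, a fold of 12.3 and an FDR of 2.2%. That within the gene (55164892 to 55165309) had 74 tags at the smallest fold of the group, 4.39, and an FDR of 100%. That 927 bp past the 3′ end (55169686 to 55170157) also had 74 tags, at a fold of 9.49 and an FDR of 24%. Only the upstream region was thus below an FDR of 5%. Fgfr3, the receptor that restrains growth plate proliferation, had a single region 1.47 kb past its 3′ end (33738542 to 33739027, chromosome 5), with 105 tags, a fold of 5.7 and an FDR of 56.9%. No region lay within the Fgfr3 gene. Fgfrl1, a receptor-like protein without a kinase domain, had none, and the nearest was 59.7 kb away.

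Among the Sprouty genes, whose products are induced by FGF and inhibit the pathway, Spry4 had 4 regions in and around a 15.1 kb gene on chromosome 18. The region inside the gene (38588436 to 38588971) had 145 tags, a fold of 15.2 and an FDR of 0%. Regions on either side, 38582985 to 38583746 and 38603886 to 38604404, had 147 and 137 tags, folds of 7.46 and 8.16, and FDRs of 0.8% and 1.05%. The outermost, at 38581113 to 38581650, had 84 tags and an FDR of 100% at a fold of 5.55. Spry4 had 159 regions per Mb of widened span, the highest density of the group, beside 18 per Mb in the 500 kb on both sides. That density rests on 4 regions in a short window. In the short gene Spry1, 1 region alone gave 68.2 per Mb, beside 16 per Mb on both sides. Spry4 was not compared with genes of like span. The region at 38603886 also overlapped Arhgap26. Spry1 had a single region across its 3′ end (37644511 to 37644716, chromosome 3) of only 19 tags, at a fold of 32.8 and an FDR of 67.9%. Spry2 had none. The table places Spry3 before position 3395800 of X, where the first listed X region starts and where mm10 has an assembly gap, so its position is not usable and Spry3 was not assessed.

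Of the IGF ligand and binding protein genes, 4 of 8 had a region (50%, against 47.4% of all protein-coding genes). Igfbp7 and Igfbp2 had those with an FDR of at most 5% (25%, against 35.1%). Igfbp7, which binds IGFs weakly and also insulin, had 5 regions on chromosome 5 inside its 58.8 kb span. That at 77381100 to 77381660 had 223 tags, a fold of 14.3 and an FDR of 0%, and its close neighbour at 77380176 to 77380724 had 133 tags, a fold of 23.4 and an FDR of 0%. Those at 77351132 to 77351773 and 77363711 to 77364233 had 147 and 113 tags, folds of 11.6 and 18.1, and FDRs of 0.07% and 0.01%. The fifth, at 77384755 to 77385034, had 30 tags at a fold of 14.8 and an FDR of 62%. All 5 thus lay between 39.2% and 96.3% of the way from start to 3′ end, and the nearest region to the start was 23.1 kb inside the gene. Igfbp2, a carrier of IGFs in blood and tissue, had a region in its span at 72843789 to 72844306 on chromosome 1 with 221 tags, a fold of 12.3 and an FDR of 0%.

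Igf1, the ligand gene, had a single region inside its 78.8 kb span (87915743 to 87916103, chromosome 10), and it was weak. It had 82 tags, a fold of 4.57 and an FDR of 82.1%. Igfbp6, which prefers IGF-2 over IGF-1, had a region 936 bp upstream of its start (102142823 to 102143250, chromosome 15), with 85 tags, a fold of 5.89 and an FDR of 100%. Neither region was of a strength that the swapped libraries did not give. Igfbp1, Igfbp3, Igfbp4 and Igfbp5 had none. Igfbp3, the main IGF carrier in serum, was 86.3 kb from the nearest region, and Igfbp4 was 5.51 kb from one, just outside the window of 5 kb. Igfbp5, abundant in bone, was 13.8 kb from one.

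Igf1r, the receptor through which IGF-1 signals, had the most regions. It ranked 54 among all protein-coding genes by number, and 93.2% of the 2429 genes over 100 kb had fewer per 100 kb. Its 14 regions compare with a median of 3 (interquartile range 1 to 6) in 377 genes of like span. There were 48 per Mb of widened span and 25 per Mb in the 500 kb on both sides. Of the 14 regions, 10 had an FDR of at most 5%. The region nearest the start, at 67975119 to 67975814 on chromosome 7, had 123 Control tags, a fold of 14.4 and an FDR of 0.02%. After it came a stretch of 112 kb with no listed region. The other 13 all lay beyond 45% of the span, on average 12.2 kb apart.

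The Igf1r region with the strongest score was at 68194097 to 68194737, with 296 tags, a fold of 22.4 and an FDR of 0%. Regions at 68089553 (198 tags, fold 20.8), 68120518 (260 tags, fold 13) and 68162936 (229 tags, fold 13.4) also had an FDR of 0%. So did the region at 68226810, with 185 tags at a fold of 13.7, and the region at 68234180 to 68234831, which lay 512 bp past the 3′ end and had 255 tags at a fold of 15. These 6 had folds within a narrow range of 13 to 22.4. The regions at 68101704 (153 tags, fold 12.4), 68186291 (100 tags, fold 9.49) and 68229973 (51 tags, fold 30.1) had FDRs of 0.02%, 0.1% and 0.26%. The remaining 4 had 14, 48, 57 and 58 tags, at 68087819, 68187979, 68196576 and 68212941, with folds of 20.6, 14.4, 7.43 and 6.15 and FDRs between 68.3% and 100%. The 4 weak regions were thus the shallow ones, apart from the region at 68229973.

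Ghr, the growth hormone receptor gene, had 3 regions in 266 kb on chromosome 15, equal to the median of genes of like span. They had 140, 32 and 44 tags, folds of 18.7, 18 and 31.8, and FDRs of 0%, 84.6% and 1.52%, at 3363309, 3495653 and 3550656. Irs2, an insulin receptor substrate that links the receptors to PI3 kinase, had 2 regions towards its 3′ end on chromosome 8, of which 1 lay within 1 kb of that end. The region inside the gene (10986545 to 10986937) had the largest fold of the group, 49.4, from 45 tags, with an FDR of 0.1%. The region 944 bp past the 3′ end (10983249 to 10983737) had 69 tags at a fold of 16.2 and an FDR of 1.63%. Both Irs2 regions were thus past the FDR limit at modest depth. Insr, the insulin receptor gene, had no region within 5 kb of its 129 kb span, and the nearest was 57.6 kb away. Of 941 genes of like span, 172 had none. Irs1, the other substrate gene, also had none, with the nearest region 53 kb away.

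The 58 regions resembled the list as a whole. Their median fold was 13.5 (interquartile range 9.09 to 18.7), against 12.2 (8.55 to 18.3) over all regions. Their median Control tag count was 92.5 (53.2 to 147), against 103 (59 to 175). An FDR of at most 5% was listed for 35 regions (60.3%, 95% Wilson interval 47.5 to 71.9), against 56.9% of all. An FDR of 100% was listed for 8 regions (13.8%), against 16.2%. The interval covers counting error only. Folds of 20 or more were seen in 13 regions (22.4%), against 21.5% of all, and 6 of these 13 had 50 tags or fewer. No fold ranks the loss of methylation, since it divides by the local cKO signal and few tags stand behind the largest ones.

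**Figure D5:**
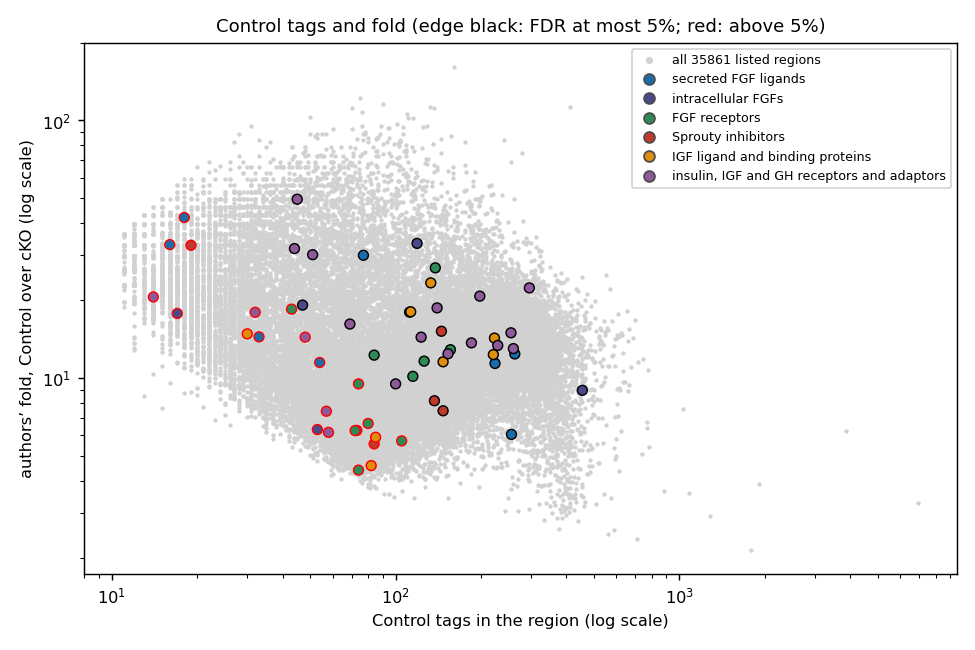
The authors' fold of Control over cKO (vertical axis, log scale) against Control tags (horizontal axis, log scale) for the 58 regions, coloured by role, over all 35861 listed regions in grey. A black edge marks an FDR of at most 5% and a red edge one above it. Red edges lie at few tags or small folds, and the Fgf12 region with 455 tags lies farthest right among the coloured points.

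Several of the 44 genes are neighbours, and neighbours could differ. Fgf6 had a region at its 3′ end, and Fgf23, 48.2 kb from it, had none. Igfbp2 had a region in its span, and Igfbp5, 5.59 kb away, had none. The stretch of 62.3 kb that runs from Fgf3 through Fgf4 to Fgf15 held no region, and neither did the 17.7 kb from Igfbp1 to Igfbp3. For scale, all protein-coding genes held 1.95 regions per 100 kb of widened span. Stretches of like length elsewhere were not counted. The 343 kb from Spry4 to Fgf1 held 8 regions, and so did the 296 kb from Fgf2 to Spry1. Among the 21 assessed genes without a region, the nearest listed region was 5.51 to 223 kb away (median 25.7), and 16 of the 21 had a span under 20 kb.

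Of 49 other genes of the FGF and IGF pathways, 31 (63.3%) had a region within 5 kb, against 47.4% of all protein-coding genes. They are longer, with a median span of 61.2 kb, beside 15.6 kb in the group of 44 and 17.2 kb over all genes. By length, 6 of 16 under 20 kb (37.5%), 21 of 27 from 20 to 100 kb (77.8%) and 4 of 6 over 100 kb (66.7%) had one, against 30.4%, 61.7% and 84.9% of all genes. The share thus lay above that of all genes in the shorter classes and below it in the longest. These differences rest on few genes, 6 in the longest class, and were not tested. Of the 41 with a listed start, 6 (14.6%) had a region within 1 kb of the 3′ end, against 6.35% of all, and 2 (4.88%) had one at a start, against 3.98%.

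Those with a region at an end included Etv5, an ETS transcription factor induced by FGF, whose 3′ end region had 197 tags, a fold of 19.3 and an FDR of 0%. Igf2r, the receptor that clears IGF-2, had 310 tags at a fold of 16.2 and an FDR of 0% at its 3′ end. Fgfbp3, which encodes an FGF-binding protein, had 89 tags at a fold of 16 and an FDR of 0.19% at its start. Of the 6 genes named here, only Fgfbp3 had its region at the start. Stat5a, which relays growth hormone receptor signals, had 262 tags at a fold of 15.2. Grb2, the adaptor that couples receptors to Ras, had 226 tags at a fold of 12.7. Foxo3, a transcription factor inhibited downstream of IGF signalling, had 258 tags at a fold of 11.7. The last 3 regions had an FDR of 0% and lay at 3′ ends. Igf2, the second IGF ligand, the co-receptor gene Kl, and Foxo1 had no region within 5 kb.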

How the data were processed

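MBD-seq was run on 1 Uhrf1 cKO and 1 Control library. Per the file headers, MACS 1.4.2 called the regions with Control as the enriched library and cKO as background (p limit 1e-10, 1 tag kept per position, libraries scaled to the smaller). Reads of 55 bp gave a modelled fragment length of 58 bp, although DNA had been sheared to about 300 bp. Its effect on region lengths and folds was not tested. The submitters' processing notes name mm10, and the aligner is not given in the sources used here. The deposited values are unscaled Control tag counts, a score (the caller's p on a negative log10 scale), a fold (ratio of Control to local cKO signal) and an FDR in percent.

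Regions were overlapped with RefSeq gene spans widened by 5 kb (at least 1 shared base) and with gene ends widened by 1 kb. Starts and strands came from RefSeq promoter records, at hand for 34 of the 44 genes. All genes of the group are accounted for, with every region given for those with a region at an end and for the 5 with the most regions. Of the other pathway genes, the 6 with the largest fold at an end were named. Genes and lists were chosen with earlier results of these data known. The overlap code was tested on simulated regions. Alternatives were stricter p and FDR limits, other windows, summit overlap, joined regions and leaving out Igf1r. Counts at 3′ ends, other windows around starts and the split by CpG-rich start were added after the data were seen. Intervals are at 95%. Software was Python 3.11.15 with pandas 2.3.3, NumPy 2.4.6, SciPy 1.17.1 and Matplotlib 3.10.9.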

Additional observations from a re-analysis of the deposited data

How the results depend on the processing

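Of 79 alternative values, 64 stayed within 1.5 times the reported count or median fold, or within the counting interval of the median tag count or share, and 15 did not. At an FDR of at most 5%, the regions numbered 35, the median Control tag count was 140 and 3 of 24 genes under 20 kb had a region. Within 1 kb of either end, 4 genes had a region (9.09%, against 6.11% of all genes). In the list as deposited 9 did (20.5%, against 9.64% of all genes). At that FDR, 4 of 34 genes had one at a 3′ end (11.8%, against 4.18% of all) and 0 at a start (2.46% of all). At a p of at most 1e-20, the median tag count was 137 and 3 of 24 genes under 20 kb had a region. At an end, 5 of 44 genes had one, and 7.32% of all genes did. Of the regions left, 89.7% had an FDR of at most 5%. That rise was set by the filter, since every region with such an FDR passes this p limit. At a p of at most 1e-15 the median tag count was 115. Gene spans alone left 4 of 24 genes under 20 kb with a region. Over all protein-coding genes of any length, the share with a region also fell from 47.4%. It was 35.1% at an FDR of at most 5%, 39.9% at a p of at most 1e-20 and 38.2% with spans alone. The share of all genes under 20 kb at these settings, and that for the 500 bp window, was not worked out. A window of 500 bp left 4 genes with a region at an end, starts alone left 2, and a window of 5 kb gave 5 of 34 genes at a start (14.7%, below the 19.9% of all genes). With 5 kb, 10 of 34 genes had a region at a 3′ end (29.4%, against 21.2% of all genes), and with 2 kb also 10 (29.4%, against 10.5%). The cause of these differences was not tested. Without Igf1r, 44 regions remained with a median fold of 12.6. No paired analysis was possible because each group has 1 library. With 1 library per group and regions of 14 to 455 Control tags, depth limits every single region.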
